A study of Rattus norvegicus with 8 samples.

Results

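BCL2 family genes were followed in granulosa cells of the rat ovary, which surround and feed the oocyte, with RNA from 8 samples measured on 1 whole-genome Affymetrix array each. The family was taken as 10 genes, Bax, Bak1, Bad, Bid, Bcl2l11 and Bmf on the death-promoting side and Bcl2, Bcl2l1, Bcl2l2 and Mcl1 on the protective side. A probe set, the group of short probes that reports 1 transcript, was taken when the platform annotation gave it 1 of these genes and no other. This left 16 probe sets for 9 of the 10 genes, of 14217 genes named in all. Bax had 0 such probe sets, because the 1 probe set listed for it also carried a second gene, and no value is given for it.

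The series' design text describes immature rats injected with the follicle-stimulating gonadotropin eCG. A second injection followed after 24 h, of anti-eCG antibody to bring on follicular atresia or of pre-immune serum. Of the oocytes, 0% developed to term in the antibody group and 30 to 50% in the serum group. Atresia is the degeneration of a follicle, in which granulosa cells die. The sources used here give neither strain nor exact age. Since the sample labels carry a number and nothing on treatment, none of the 8 samples could be assigned to antibody or serum. The results are therefore each array's own value and how widely the 8 differ, with no comparison of the treatments and no test. Each array goes by its label number, and runs of 8 values follow the order 2074, 2076, 2194, 2195, 2196, 2197, 2198 and 2199.

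Proteins of this family decide whether the outer mitochondrial membrane stays intact. Bax and Bak1 encode the effectors that open it. Bad, Bid, Bcl2l11 (BIM) and Bmf encode BH3-only proteins, which carry a death signal to the membrane. Bcl2, Bcl2l1 (BCL-XL), Bcl2l2 (BCL-W) and Mcl1 encode the proteins that bind both kinds and hold them in check. Much of this control acts on the proteins, through phosphorylation, cleavage and turnover, which RNA arrays do not see. In bulk samples such as these, fewer cells of a type and less RNA per cell cannot be told apart.

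Signals were scaled between arrays, and the 40th percentile of each array, 273 to 471, served as a floor under which values have no order. A probe set counted as measured when it lay above its array's median on at least 2 arrays, which held for 10 of the 16 member probe sets and 8 genes. Bak1 was below this filter. Spread is given as the inner range, the second highest over the second lowest array after the floor, so that 1 extreme array at either end does not set it. Levels of different genes cannot be compared on these arrays.

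Arrays 2074 and 2076 stood apart from the other 6 across the genome. Both lay beyond the other 6 in the same direction in 24.7% of the 14058 measured named probe sets, counted only where every array on the higher side was above its own floor. Their RNA controls differed too, since the ratio of 3' to 5' signal of beta-actin was 11.0 and 12.1 there, and 4.67 to 8.08 in the remaining 6. The same ratio of GAPDH was 6.66 and 6.07 there, within the 5.27 to 8.81 of the remaining 6. Of 8 granulosa markers 7 were measured, with a summed signal of 113129 to 210871 that came mostly from Inha, Inhba and Nr5a2. Amh, at 242 to 1057, was at the floor on array 2199. Markers of theca and stroma (3 of 5 measured), endothelium (2 of 4) and the oocyte (2 of 4) were weak, each at the floor on 1 to 5 arrays, and do not show these cells to be present. Their summed signals were 516 to 2223, 273 to 1964 and 259 to 1878 in that order. Of the oocyte markers, Gdf9 gave 61.7 to 1189 and was at the floor on array 2197 only, while Zp2 was at the floor on 3 arrays. The leukocyte sum (3 of 5 measured) was 2172 and 2387 on arrays 2074 and 2076, against 2981 to 4364 on the other 6. Of its 3 genes only Csf1r set the pair apart, with 179 (at the floor) and 526, against 871 to 1891. Cd14 and Cd68 on the pair lay within the range of the other 6. Pdgfra, Ptprc, Itgam, Kdr, Bmp15 and Zp3 were below the filter. The erythroid sum, from Hbb and Alas2, was 48897 and 13218 on the pair, against 3797 to 10335 on the other 6. Hbb was 45704 and 12573 on the pair, against 3709 to 9666. Alas2 was 3193 and 645, against 88.3 to 669, so that on array 2076 it lay within the range of the other 6.

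None of the 8 measured members reached an inner range of 2-fold, a size that 29.8% of the 10513 measured genes reached. With 8 genes this share says little about the family. Bcl2 and Bmf were at the floor on most arrays, so that the value of Bcl2 is a lower bound and that of Bmf cannot be read, and both passed 2-fold with a lower floor or none. Bcl2l11 passed it with quantile normalization. Of all measured genes, 27.7% reached 2-fold with quantile normalization and 39.6% with a lower floor or none. Over the members at the floor on at most 1 array, the median log2 inner range was 0.37 for 3 death-promoting members and 0.63 for 3 protective ones. Beside these, it was 0.78 over all measured genes, which include dim ones at the floor on more arrays. Over the 6758 genes above the median on all 8 arrays, a stricter filter than that of the 6 members, it was 0.67. Of these 6 members, the narrowest were Bad and Bid, and the widest were Bcl2l11 and Bcl2l2, 1 from each side. With 1 array left out, 4 of 60 log2 inner ranges moved by over 1.5 times. Bad had 0.16 without array 2076 and 0.16 without array 2199, against 0.32 over all 8. Bcl2l1 had 0.41 without array 2074 and 0.41 without array 2076, against 0.63. Left out in turn, 0 of 8 arrays brought any member that stayed measured to 2-fold. Dropping an array cannot widen a gene's inner range, apart from small shifts in scaling and floor, so this was all but fixed in advance. The full range, which includes the single highest and lowest array, was over 2-fold in 7 of the 8 members, and at least 2-fold in 71.4% of all measured genes.

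**Figure D1:**
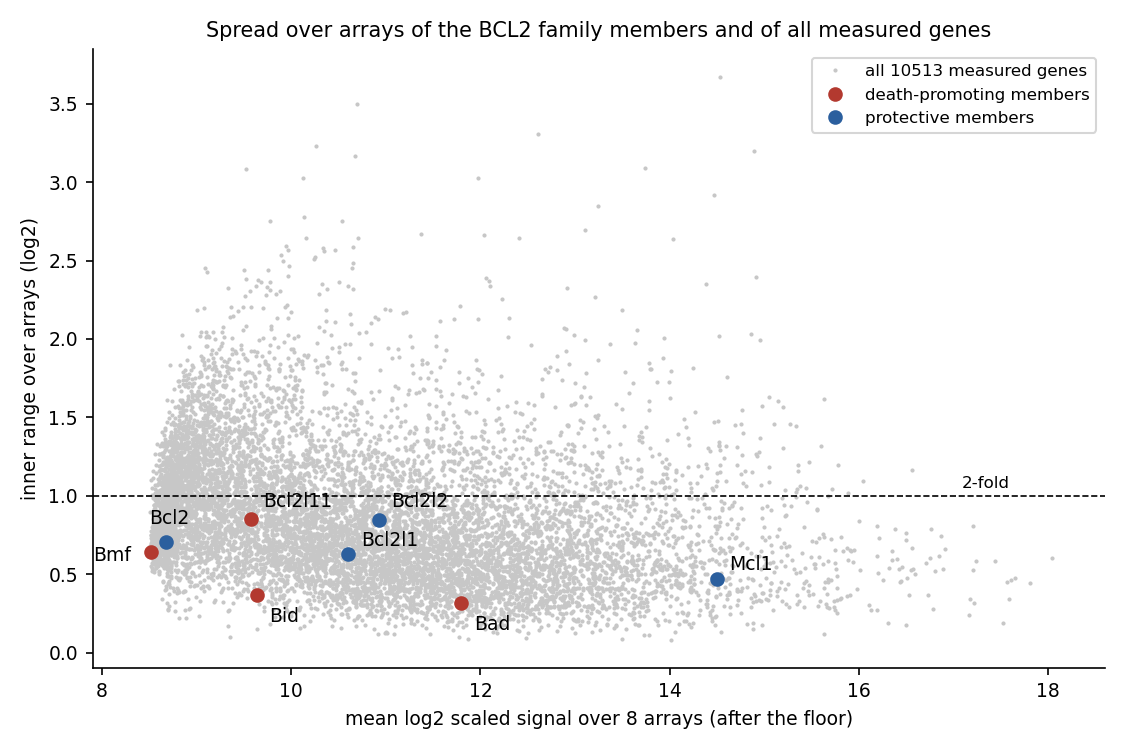
Inner range over the 8 arrays (log2, vertical axis) against the mean log2 scaled signal after the floor (horizontal axis) for all 10513 measured genes (grey) and for the brightest probe set of the 8 measured members, death-promoting in red and protective in blue. All 8 members lie under the dashed line at 2-fold, from 0.32 for Bad to 0.85 for Bcl2l11.

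By the inner range the death-promoting side was narrow in Bad and Bid and wider in Bcl2l11. Bad, whose protein binds BCL2 and BCL-XL when survival kinases are off, gave scaled signals of 3456, 4308, 3532, 3878, 3668, 3619, 2175 and 4394. Array 2198 was low and the other 7 lay close together. The inner range was 1.25-fold, and 5.27% of measured genes had a narrower one, while the full range was 2.02-fold. Bid, which is cleaved by caspase-8 and links death receptors to mitochondria, gave 726, 694, 1281, 353, 846, 896, 896 and 770.4. Array 2194 was high, and the value on array 2195 was under that array's floor of 471. Its inner range was 1.29-fold, but its full range of 2.72-fold was wider than the 2.66-fold of Bcl2l2.

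Bcl2l11, a BH3-only gene induced when survival factors are withdrawn, was about as variable as Bcl2l2, and the pair were the widest of the members that could be read. Its brightest probe set gave 1077, 764, 1017, 1318, 741, 382, 598 and 597, with arrays 2074, 2194 and 2195 high and array 2197 low. The inner range was 1.80-fold, wider than in 57.1% of all measured genes and than in 40.3% of the 526 of most similar signal, and the full range was 3.45-fold. A second measured probe set of the gene gave 398, 335, 547, 325, 590.2, 538, 574 and 699.8, with an inner range of at least 1.48-fold. There arrays 2074 and 2076 were the lowest above the floor and array 2199 the highest. The 2 probe sets lay on opposite sides of their own medians on 6 of 8 arrays, and array 2195 was the highest in one and under the floor in the other.

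Bmf, whose BH3-only protein is freed from the cytoskeleton when cells detach, was near the limit of the arrays. It was above the floor on array 2196 (480.1) and array 2197 (403) only, and at the floor on the other 6. Its spread cannot be read. Bak1 was above its array's median on 1 array and at the floor on 4, with signals of 64.8 to 555. The remaining unmeasured probe sets belonged to genes with a brighter one, and 3 of the 6 unmeasured probe sets, 1 each of Bid, Bcl2l1 and Bcl2l2, were at the floor on all 8 arrays.

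On the protective side Bcl2l1 and Bcl2l2 were high on the same pair of arrays. Bcl2l1, which encodes the long-lived guardian BCL-XL, had signals of 2259 and 2086 on arrays 2074 and 2076, against 1582, 1550.1, 749, 1349.9, 1616 and 1799 on the other 6. Array 2196 was the low one. For Bcl2l2 the signals were 2637 and 3630.3 on the same pair, against 1737, 1617, 1725, 2224, 1465 and 1366 on the other 6. In both genes the pair did not overlap the other 6. These were 2 of the 10 measured member probe sets with the pair above, and 0 had it below, against 13.1% above and 11.6% below over all measured probe sets. The condition that the higher side lie above the floor was added after a first count without it, which gave 5 of 10. In that count 2 had the pair above, against 13.1% of all, and 3 had it below, against 13.6%. Those 3 were Bmf, Bcl2 and the second probe set of Bcl2l11, in each of which at least 1 of the other 6 arrays was at the floor.

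The inner range was 1.55-fold in Bcl2l1 and 1.80-fold in Bcl2l2. Over arrays 2194 to 2199 alone it was 1.19-fold in Bcl2l2, a log2 inner range of 0.26 against 0.85 over all 8. With these fewer arrays the median over all measured genes fell too, from 0.78 to 0.49. The beta-actin 3' over 5' ratio was also highest on that pair of arrays. The leukocyte marker score, the mean log2 distance of the markers from their medians, was -0.91 and -0.59 there, against -0.27 to 0.28 on the other 6. Of its 3 genes only Csf1r had the pair outside the range of the other 6. The erythroid score was 2.60 and 0.51, against -0.99 to 0.35. Hbb had both arrays of the pair above the other 6, and Alas2 had array 2074 alone above them. Of the 7 measured granulosa markers only Foxl2 and Inha had the pair above the other 6. Foxl2 was 10432 and 8098, against 3572 to 6927, and Inha was 90530 and 69907, against 26724 to 54083. The part of these controls and markers in the values of Bcl2l1 and Bcl2l2 was not tested. A second probe set of Bcl2l1, below the filter, was at the floor on both arrays of the pair and on 1 other, and reached 660 on array 2195. It thus did not show the high values of the brightest one.

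Bcl2, the founding member of the family, was weak. It gave 52.2, 45.8, 766, 160, 413, 492, 372 and 55.8, and was above the floor on arrays 2194, 2196 and 2197 only. The inner range was at least 1.63-fold, and no order can be read among the 5 arrays at the floor.

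Mcl1 encodes a protective protein of short half-life whose level depends on continued transcription. The brightest probe set gave 13221, 21714, 26828, 21522, 29853, 30071, 21646 and 26049. Array 2074 was low, and the other 7 spanned 21522 to 30071. Its inner range of 1.39-fold was the smallest of the protective members. On array 2074 the erythroid markers were highest and the leukocyte score lowest, and their part in the Mcl1 value was not tested. Of the 3 leukocyte markers only Csf1r was lowest on that array.

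The second measured probe set of Mcl1 gave 1946, 2105, 2005, 1755, 1366, 1601, 1990.3 and 1024. Here array 2199 was the lowest and array 2074 was above the median. The 2 probe sets lay on opposite sides of their medians on 6 of 8 arrays, and the log2 difference between them shifted by 1.90 from array 2074 to array 2199. Whether Mcl1 RNA was high or low on an array therefore depended on the probe set. Among the 2664 genes with 2 measured probe sets, the median number of opposite arrays was 4 of 8, and 20.3% had at least 6. Both members with 2 measured probe sets, Bcl2l11 and Mcl1, were among these.

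**Figure D2:**
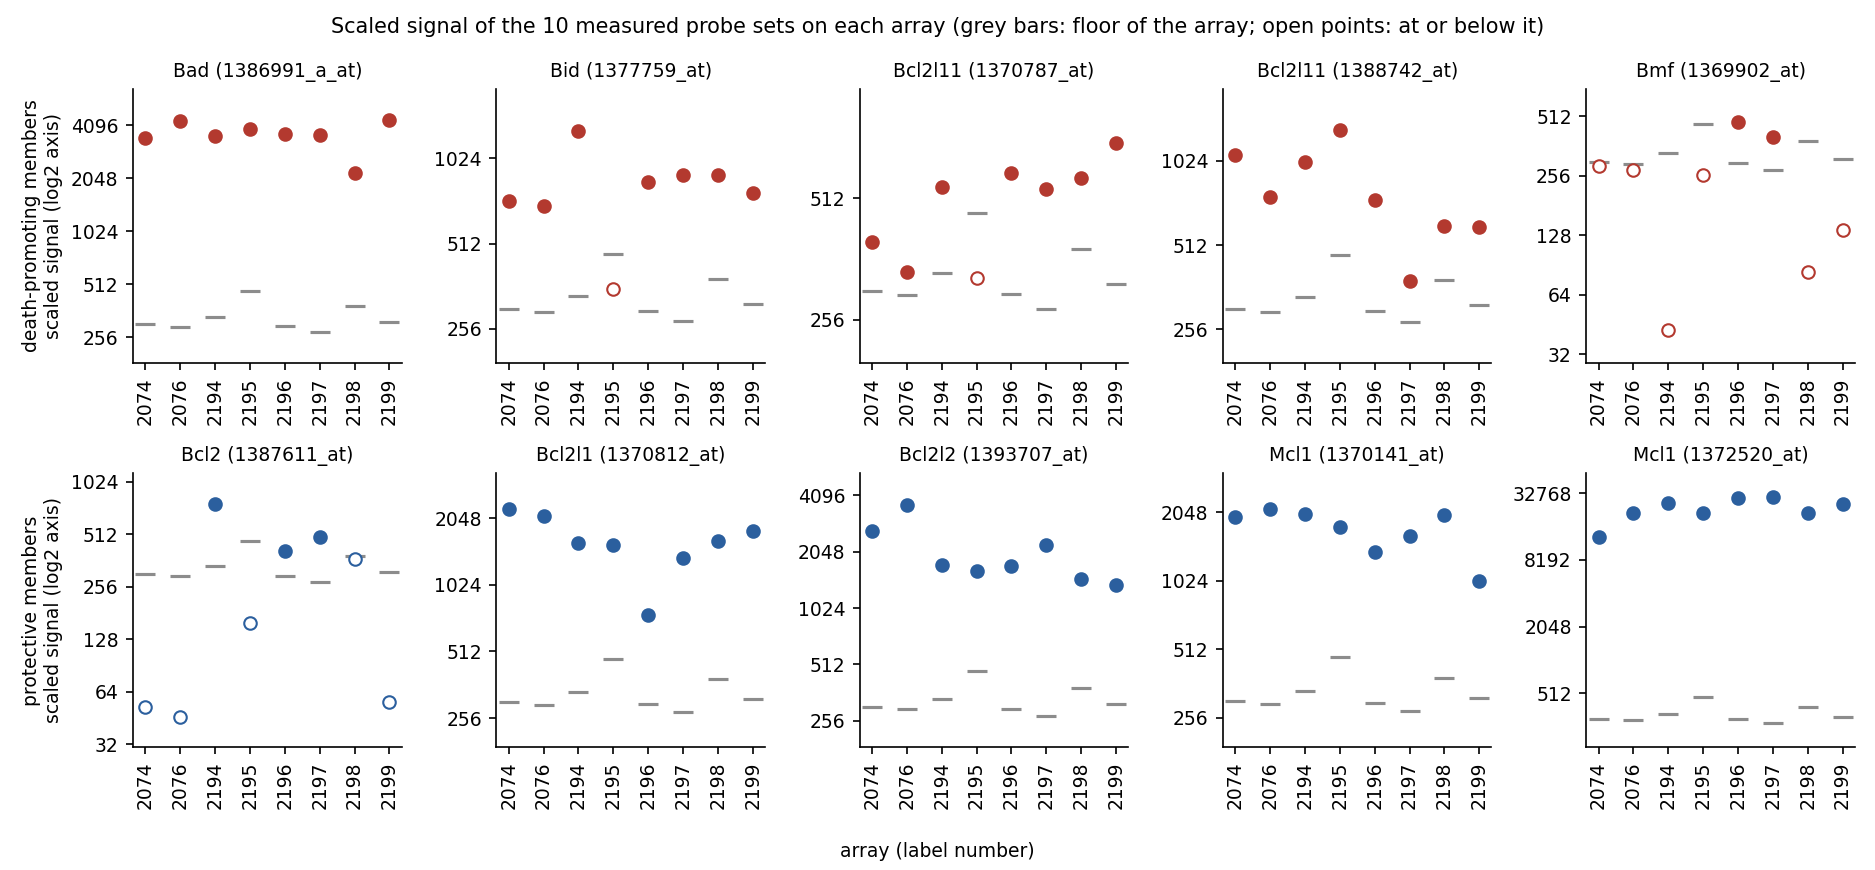
Scaled signal (vertical axis, log2 scale) of the 10 measured member probe sets on each of the 8 arrays (horizontal axis), death-promoting members above and protective members below. Grey bars are the floor of each array and open points lie at or under it. Bcl2l1 and Bcl2l2 are highest on arrays 2074 and 2076, and Bmf and Bcl2 are at the floor on 6 and 5 arrays.

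**Figure D3:**
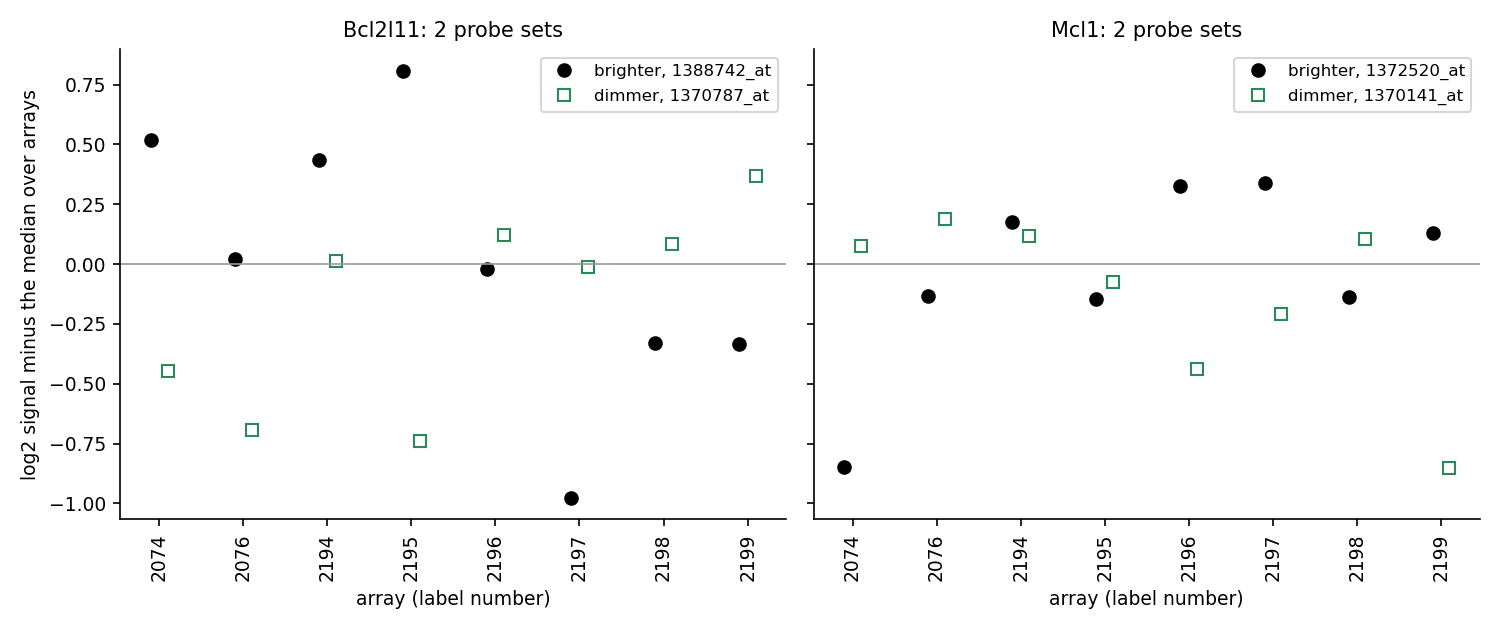
Log2 signal minus the median over the 8 arrays (vertical axis) by array (horizontal axis) for the 2 measured probe sets of Bcl2l11 and of Mcl1. Filled circles are the brighter and open squares the dimmer probe set, and in both genes they lie on opposite sides of 0 on 6 of 8 arrays.

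To set the sides against each other, each gene was centred on its median over arrays and the members of a side were averaged on each array. A signal under the floor entered at its array's floor, and the floors differ. On array 2195, with a floor of 471, Bmf at 258 thus entered as 0.39 and Bcl2 at 160 as 0.24. The scores with Bmf and Bcl2 therefore hold in part differences between array floors. The death-promoting score was 0.01, -0.06, 0.24, 0.13, 0.12, -0.17, -0.21 and -0.08. The protective score was -0.03, 0.22, 0.28, -0.01, -0.18, 0.19, -0.10 and -0.10. Both sides were highest on array 2194, where Bcl2 was at 766. Without Bmf and Bcl2 the protective score was 0.05 there and highest on array 2076, at 0.44, and with the second probe set of Mcl1 it was also highest on array 2076. With all 8 measured members the sides parted most on arrays 2196 and 2197.

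The balance, the death-promoting minus the protective score, was lowest on array 2197 (-0.36) and highest on array 2196 (0.30). Of the 8 arrays, 4 had it above 0 and 4 below. Of the balance, the inner range was 0.42, against 0.30 for the death-promoting and 0.32 for the protective score. Without array 2197 the death-promoting score had 0.14 and the protective score 0.21, and without array 2076 the balance had 0.24. The death-promoting score also had 0.198 without array 2198, and the balance had 0.28 without array 2196.

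The sign of the balance depended on which probe sets entered it. Without Bmf and Bcl2, which were at the floor on most arrays, the balance was 0.01, -0.43, 0.30, 0.14, 0.28, -0.43, -0.19 and -0.03. With the second probe set of Bcl2l11 and of Mcl1 it was -0.43, -0.54, -0.13, -0.13, 0.53, 0.02, -0.06 and 0.44. Only 3 of the 8 arrays had the same sign in all 3 versions, with 2196 above 0 and 2076 and 2198 below. Over all 19 settings with a balance, array 2196 stayed above 0 and array 2198 below. With the median of members the balance on these arrays was nearest to 0, at 0.01 and -0.02. The log2 distance from the gene's median was -1.09 for Bcl2l1 on array 2196 and -0.74 for Bad on array 2198. Each was that gene's lowest array, and no setting left out either gene. Array 2076 was below 0 in 17 of its 18 settings and at 0.29 without a floor. Array 2197 was below 0 in 18 of 19 settings and at 0.02 with the second probe sets. These settings mostly reuse the same genes and arrays and are not independent.

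**Figure D4:**
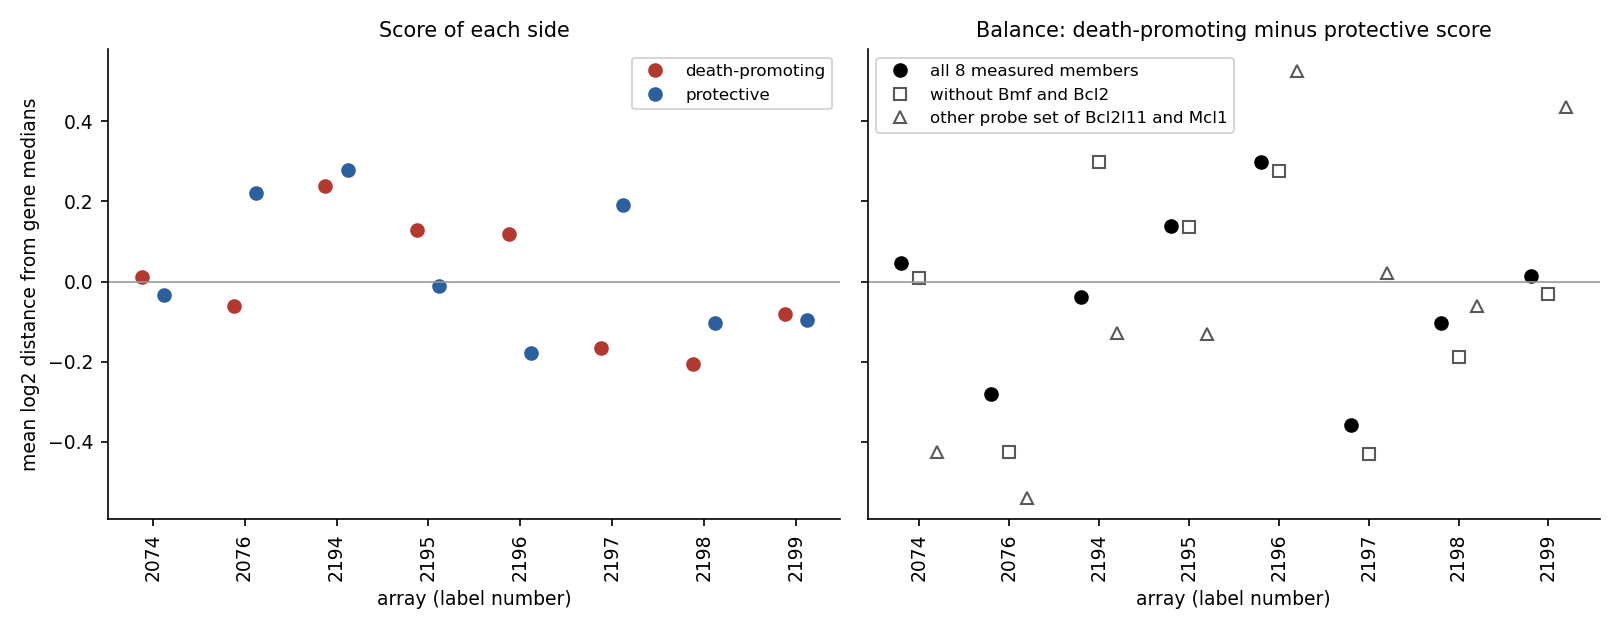
Left, the death-promoting (red) and protective (blue) score on each array, as the mean log2 distance of the members from their medians over arrays. Right, the balance, which is the death-promoting minus the protective score, from all 8 measured members (filled), without Bmf and Bcl2 (squares) and with the other probe set of Bcl2l11 and Mcl1 (triangles). Of the 8 arrays, 3 keep their sign in all 3 versions.

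FOXO factors, which enter the nucleus when PI3K and AKT signalling falls, are known activators of Bcl2l11, and the bases before the start sites were searched on both strands for the FOXO core GTAAACA and 10 other motifs. RefSeq start sites of assembly GRCr8 were listed for 9 of the 10 genes, in 12 windows of 250 bases, 4 of them of Bcl2l1 and partly overlapping. The FOXO core was picked out of the 11 motifs after the matches were seen. The core was found in 2 of the 9 genes, which is 2 of the 12 member windows, and in 3.21% of all 33469 windows of that length. The 2 windows are shown because they hold it, in capitals, on the given strand or as its reverse complement TGTTTAC. The Bcl2l11 window is chr3:135819792-135820041, plus strand, with the core beginning 204 bases before the start site. The Bad window is chr1:213562864-213563113, plus strand, with the reverse complement beginning 118 bases before it.
Bcl2l11: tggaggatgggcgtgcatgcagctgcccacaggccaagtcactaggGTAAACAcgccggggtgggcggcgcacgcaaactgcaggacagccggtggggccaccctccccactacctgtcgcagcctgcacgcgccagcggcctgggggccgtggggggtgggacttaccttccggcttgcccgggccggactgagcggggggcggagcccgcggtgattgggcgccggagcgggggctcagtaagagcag
Bad: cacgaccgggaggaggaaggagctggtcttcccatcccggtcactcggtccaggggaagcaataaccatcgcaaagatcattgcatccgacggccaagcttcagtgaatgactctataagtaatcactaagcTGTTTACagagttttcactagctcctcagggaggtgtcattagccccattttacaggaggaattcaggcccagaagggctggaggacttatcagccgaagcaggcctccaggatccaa
Of the other 10 motifs, 5 matched 0 of the 9 genes. These were the CRE TGACGTCA (1.59% of all windows), AP1 TGANTCA (6.34%), E2F TTTCCCGC (0.813%), NRF1 (0.762%) and the SRE (1.5%), the last pair given by name alone. The GC box GGGCGG matched 6 genes in 6 of the 12 windows (30.5% of all windows). The CCAAT box matched 3 genes in 4 windows (34.0%) and the ETS site CCGGAAG 3 genes in 4 windows (7.27%). The CRE half-site TGACG, which lies within the CRE, matched 2 genes in 2 windows (18.2%). The STAT site TTCNNNGAA matched 2 genes in 3 windows (7.67%). A match of letters is a description and shows no binding. Foxo1 gave 12314, 6311, 3157, 1931, 1958, 1457, 4019.9 and 1387, and was highest on arrays 2074 and 2076. Foxo3 had an inner range of 1.25-fold. On array 2074, the highest for Foxo1, the log2 distance from the gene's median was 0.52 in the brightest Bcl2l11 probe set, -0.45 in its second one and -0.08 in Bad. On array 2076, second highest for Foxo1, it was 0.02, -0.69 and 0.24. On array 2199, the lowest for Foxo1, it was -0.33, 0.37 and 0.27. On array 2197, second lowest for Foxo1, it was -0.98, -0.01 and -0.01. On array 2195, where Foxo1 was 1931, it was 0.81, -0.74 and 0.09. Any link of Foxo1 to these genes was not tested.

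The rest of the pathway was described from 3 lists. Among 13 other genes of the BCL2 family, 6 were measured and 1 reached 2-fold. This was Bnip3, a mitochondrial BH3-like protein of the hypoxia response, which gave 13407, 9688, 16600, 17958, 18288, 22517, 24782 and 8459 and had an inner range of 2.32-fold. Arrays 2199 and 2076 were low and 2197 and 2198 high. Bok, an effector-like relative of BAX, was high on array 2074 with 8443, against 3933 to 5687 elsewhere. Bbc3, which encodes the BH3-only protein PUMA, had an inner range of 1.90-fold and Bcl2l12, the narrowest, 1.24-fold. Bcl2l10 had at least 1.92-fold.

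Among 16 genes of the mitochondrial pathway and its executioners, 13 were measured and 3 reached 2-fold. Dffa encodes the inhibitor of the nuclease that cuts DNA in dying cells. Its signal was 4765 and 4995 in the pair 2074 and 2076, against 9448 to 14365 elsewhere, and the inner range was 2.85-fold. With the mean of its probe sets Dffa did not reach 2-fold. Dffb, the nuclease itself, had at least 2.01-fold and Endog at least 2.35-fold, each at the floor on 4 arrays. Apaf1, the scaffold of the apoptosome, had 1.15-fold, the narrowest. Casp9 had 1.38-fold, Diablo 1.43-fold and Xiap 1.53-fold.

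Of 11 upstream regulators, 9 were measured and 2 reached 2-fold, which were Foxo1 at 4.33-fold and the stress gene Trib3 at 2.40-fold, while Foxo3 was the narrowest. In all, 6 of the 28 measured genes of the 3 lists reached 2-fold, beside 29.8% of all measured genes. The 6 became 4 without array 2074, 3 without array 2076 (Endog, Foxo1 and Trib3) or 2195 (Bnip3, Dffa and Foxo1), 2 without array 2198 (Dffa and Foxo1) and 3 over arrays 2194 to 2199. The share of all measured genes fell too, to 18.8% without array 2074, 18.7% without 2076, 21.8% without 2195, 23.4% without 2198 and 12.0% over arrays 2194 to 2199.

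The genes most like a member over arrays were sought by the root mean square difference between centred log2 profiles. For Bcl2l11, the widest of the members that could be read, these were Hp (0.11), Nat2 (0.20) and Ppp1r21 (0.23), against a median of 0.65 over the 10512 other genes. For Mcl1 they were Wdr45b (0.11), Usp1 (0.12) and Akirin1 (0.12), against a median of 0.57. Hp, which encodes haptoglobin, gave 765, 584, 680, 909, 496, 293, 499 and 402, and Wdr45b was low on array 2074 with 3559, against 6153 to 7428 elsewhere. These likenesses rest on the brightest probe set of each gene over 8 arrays. The nearest of 10512 genes lie under the median by construction, so the distances give a ranking and no test of likeness. Nat2 was at the floor on arrays 2197, 2198 and 2199, with 71.5, 201 and 150.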

How the data were processed

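Biotin-labelled total RNA was hybridised to arrays, per the labels. The deposited table covers 31099 probe sets, of which 57 are controls, in units of linear signal intensity. The authors made these intensities with MAS5, per the submitters' processing notes, in a version that the sources used here do not name, and the mean after trimming 2% at each end was 1500.5 to 1500.6 on every array. No detection calls were used here.

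Intensities were put on the log2 scale, shifted so that probe sets ranking over the median on all 8 arrays had the same median signal everywhere, and floored at the 40th percentile. The brightest measured probe set stood for a gene. Signals are printed before the floor. Of 20826 probe sets with 1 gene symbol, 20758 matched the GRCr8 gene table and 0 changed name. Python 3.11.15 with pandas 2.3.3 was used, and the spread step was tested on simulated data. The number of arrays limits the precision, and no replicate groups could be formed.

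The members, lists and scores were chosen with earlier results of these data known. Named were all members, listed genes of at least 2-fold inner range, the narrowest of each list, and the 3 nearest genes of Bcl2l11 and Mcl1. Bok, Bbc3, Bcl2l10, Casp9, Diablo and Xiap were named after their values were seen. Of 11 promoter motifs searched, the FOXO core was singled out after the matches were seen. The condition that the higher side lie above the floor, in the count of probe sets with arrays 2074 and 2076 beyond the other 6, was added after seeing a count without it. Of 14 other family names, 2 were the same gene. Alternatives concerned scaling, floor, filter, probe sets, measure of spread and arrays left out.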

Additional observations from a re-analysis of the deposited data

Results flagged for a closer look

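In 3 of the 10 measured member probe sets 1 array lay far from the other 7, against 6.07% of all measured named probe sets. The gap to the nearest array was divided by the full range and compared with Dixon's critical value for 8 samples, and chance flags about 1 in 20. Array 2198 was low in Bad (0.658, with 2175 against 3456 to 4394). Array 2196 was low in the brightest probe set of Bcl2l1 (0.533, with 749 against 1349.9 to 2259). Array 2074 was low in the brightest probe set of Mcl1 (0.593, with 13221 against 21522 to 30071), and the second Mcl1 probe set was above its median there.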

How the results depend on the processing

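Of 118 log2 inner ranges of single members under alternatives, 21 moved by over 1.5 times, 11 up and 10 down. These were 7 of 8 with the full range, 5 of 8 over arrays 2194 to 2199 alone (all narrower), 4 of 60 with 1 array left out and 5 of 42 others. The count of members at 2-fold was 0, and became 1 with quantile normalization (Bcl2l11), 2 with the floor at the 25th percentile and 2 without a floor (Bmf and Bcl2 in both), and 7 with the full range. Beside these counts, the share of all measured genes was 29.8%, and became 27.7%, 39.6%, 39.6% and 71.4% in that order. Leaving out arrays in turn gave member counts of 0 to 0, which was all but fixed in advance, because dropping an array hardly widens a gene's inner range. The 6 other pathway genes at 2-fold became 3 when the median had to be passed on all 8 arrays, 3 over arrays 2194 to 2199, 16 with the full range, and 2 to 5 with 1 array left out. Over all measured genes the share at 2-fold was 29.8%, and became 19.3%, 12.0%, 71.4% and 18.7% to 25.1% under the same settings. The inner range of the death-promoting score was 0.50 without a floor and 0.14 to 0.37 with 1 array left out. That of the protective score was 0.53 with the lower floor, 0.86 without a floor, 0.61 with the second probe set of Mcl1, and 0.21 to 0.33 with 1 array left out. That of the balance was 0.64 with the lower floor, 1.01 without a floor, 0.66 as the full range, 0.70 without Bmf and Bcl2, 0.86 with the second probe sets, and 0.24 to 0.54 with 1 array left out. The last 2 kinds of score were added after seeing the data. The member probe sets with arrays 2074 and 2076 beyond the other 6, which were 2, numbered 2 to 3 under the planned settings. They numbered 5 without the condition that the higher side lie above the floor, and that condition was added after seeing the 5. The cause of these shifts was not tested, except for 2 that follow by construction. The full range is wider, and a gene's inner range over fewer arrays is narrower or equal, apart from small shifts in scaling and floor. Over all measured genes the median log2 inner range was 0.78. It was 0.49 over arrays 2194 to 2199 and 0.64 to 0.71 with 1 array left out. Low signal limits Bmf, Bcl2 and Bak1. With the lower floor the log2 inner range was 1.34 in Bmf and 1.74 in Bcl2, and without a floor 2.28 and 3.24. Under both settings the inner ranges of the other measured members were unchanged. No paired analysis was possible because the labels give no groups.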
